A study of Mus musculus with 4 samples.

Results

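The genes described here encode potassium channel subunits: the rows of the deposited table whose symbol starts with Kcn, apart from the antisense transcript Kcnq1ot1, together with Dpp6 and Dpp10. Of the 25259 rows in the table, 90 carried such a symbol, and the 73 with a mean of at least 10 normalised reads over all 46 libraries are the members. The mean decided the limit: Kcnj13 lay just inside it at 10.5, and Kcne4 just outside at 9.97. All 17 rows under the limit are left undescribed, among them Kcnmb2 at 9.58, Kcnk4 at 9.31 and both rows named Kcnh8. The comparison rests on 4 groups of C57BL/6 mice aged 8 weeks. They were Foxp2hum/hum dorsomedial striatum (DMS, 12 libraries), wild-type DMS (11 libraries), Foxp2hum/hum dorsolateral striatum (DLS, 12 libraries) and wild-type DLS (11 libraries). Both Foxp2 copies of Foxp2hum/hum mice carry the humanised form of this forkhead gene, which is tied to speech and language. Tissue was taken by laser capture from frozen brain, and RNA of all cell types in the captured piece was sequenced after a preparation adapted to 15 ng of total RNA. Which animal a library came from is not in the labels, so p-values measure the spread between libraries, which may be technical, and libraries of both regions may share an animal. Each library held between 16794127 and 41009070 reads in genes, and values are read counts scaled by the authors with DESeq size factors.

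Potassium channels set the resting potential of a neuron, the delay before it fires and the shape and spacing of its action potentials. A channel is built of pore subunits, which often assemble only within 1 subfamily, and of accessory subunits that change how fast it opens, how fast it inactivates and how much of it reaches the membrane. Striatal projection neurons are known for strong inward rectifier and A-type potassium currents, which hold them far below threshold and delay their first spike. Fast-spiking interneurons of the striatum rely on Kv3 channels, and the choroid plexus and glia use inward rectifiers to move potassium. In bulk tissue, fewer cells of a type and less RNA per cell cannot be told apart.

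The A-type channel complex, in which Kv4 pore subunits, KChIP proteins and dipeptidyl peptidase-like proteins assemble, held members that moved in opposite directions between the regions, so the stretches just upstream of the start of one gene of each kind are shown. Kcnd2 encodes the Kv4 pore subunit with the most reads per kilobase here, Kcnip2 a KChIP, and Dpp10 a dipeptidyl peptidase-like subunit. Each line gives the 250 bases before the annotated start, read 5′ to 3′ on the strand of the gene, from RefSeq on GRCm38.p6, which is another build than the one used for the reads. Capitals mark TATTTAT, a word of the kind bound by FOXP proteins.
Kcnd2, chr6:21215096-21215345, plus strand: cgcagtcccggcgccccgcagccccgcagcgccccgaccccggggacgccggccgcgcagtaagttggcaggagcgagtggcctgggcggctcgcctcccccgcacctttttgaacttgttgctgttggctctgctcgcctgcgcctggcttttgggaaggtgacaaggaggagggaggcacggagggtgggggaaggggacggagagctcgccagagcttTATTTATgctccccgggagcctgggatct
Kcnip2, chr19:45816064-45816313, minus strand: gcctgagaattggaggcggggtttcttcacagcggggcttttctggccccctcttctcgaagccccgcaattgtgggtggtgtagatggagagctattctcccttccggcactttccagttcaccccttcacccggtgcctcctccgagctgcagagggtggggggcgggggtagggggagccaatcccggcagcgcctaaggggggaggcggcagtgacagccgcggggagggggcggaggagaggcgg
Dpp10, chr1:124045560-124045809, minus strand: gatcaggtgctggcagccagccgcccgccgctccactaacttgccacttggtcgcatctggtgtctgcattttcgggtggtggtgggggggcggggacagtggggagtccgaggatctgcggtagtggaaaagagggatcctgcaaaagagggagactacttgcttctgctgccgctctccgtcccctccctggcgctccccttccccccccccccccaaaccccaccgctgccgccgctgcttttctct
The Kcnd2 window held TATTTAT, and the Kcnip2 and Dpp10 windows held neither TATTTAT nor TGTTTAC, the other forkhead-type word searched. Both words were looked for on both strands, and neither word contains the other on either strand. Of the 73 members, 52 matched the table by symbol, with 77 windows between them. TATTTAT was found in windows of Kcnd2 and Kcnj16, which is 2.6% of the members' windows, against 5.17% of all 32851 windows of the same length. TGTTTAC was found in none of the members' windows, against 3.17% of all windows. A match is a string of letters and not a binding site.

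With Kcnip1 set aside, normalised reads per kilobase of annotated exon, averaged over all libraries, put Kcnj4, an inward rectifier gene, highest of the members at 1448, followed by Kcnip2 at 1348, Kcnab1 at 883, Kcnk2 at 854 and Kcnk1 at 807. Kcnab2 followed at 646, Kcnd2 at 576 and Kcnh3 at 538. Within these 8, the K2P genes Kcnk2 and Kcnk1 and the Kv beta gene Kcnab1 lay close together, and their ranges over the libraries overlapped. Among the rest, Dpp6 had 301 reads per kilobase, the Kv1 gene Kcna1 244, the silent subunit gene Kcns2 241, the Kv7 gene Kcnq5 239.6, the sodium-activated channel gene Kcnt1 171 and the BK pore gene Kcnma1 139.7. The row of Kcnip1, a KChIP gene, was higher than all of these at 2574 reads per kilobase, but it followed the row mmu-mir-2135-3.1 through every library. The ratio of the Kcnip1 row to that row lay between 0.704 and 0.843 in all 46 libraries. Kcnip1 had 228790 normalised reads in the wild-type DMS library numbered 72 and 117640 in the wild-type DLS library numbered 70, against 3335 to 28256 in the other 44 libraries. How much of the Kcnip1 value is channel messenger RNA was not tested, and no difference between groups is given for it.

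**Figure D1:**
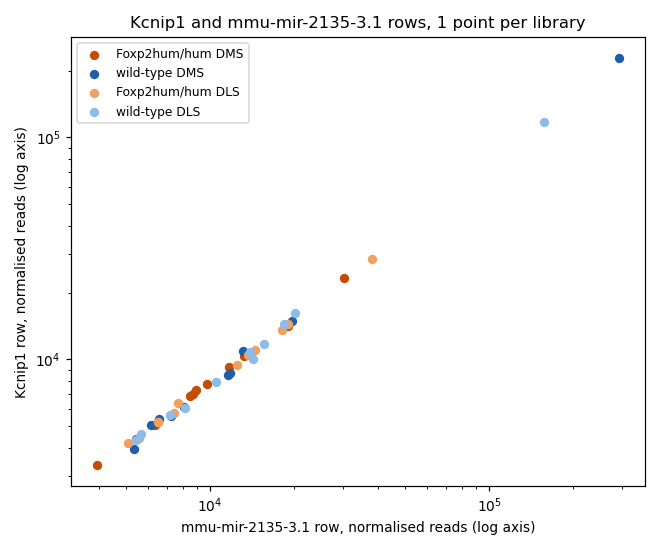
Normalised reads of the Kcnip1 row (vertical, log axis) against the mmu-mir-2135-3.1 row (horizontal, log axis), with 1 point per library coloured by group. All 46 points lie along 1 line, with a ratio between 0.704 and 0.843, and 1 wild-type DMS and 1 wild-type DLS library stand far above the rest.

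The question of how DMS and DLS differ in their potassium channel genes was asked in each genotype. In both genotypes most of the members that differed were lower in DMS, and a small group was higher. In Foxp2hum/hum mice 24 of 73 members fell in DMS and 7 rose, against a background of 8.82% of all 19561 tested genes that fell and 9.33% that rose (limma, Benjamini-Hochberg adjusted p under 0.05). In wild-type mice 22 members fell and 8 rose, against a background of 8.72% and 8.54%. The median log2 difference, DMS minus DLS, was -0.24 over the members in Foxp2hum/hum and -0.22 in wild-type, against 0.018 and 0.0067 over all tested genes. Between the genotypes, 27 members were called in both, with 20 lower and 7 higher in both, which is 87.1% of the Foxp2hum/hum list and 90% of the wild-type list. Over all genes those shares were 71.8% and 75.5%. The libraries of the 2 genotypes are separate, but the list was proposed with these results known, so the agreement is a description.

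**Figure D2:**
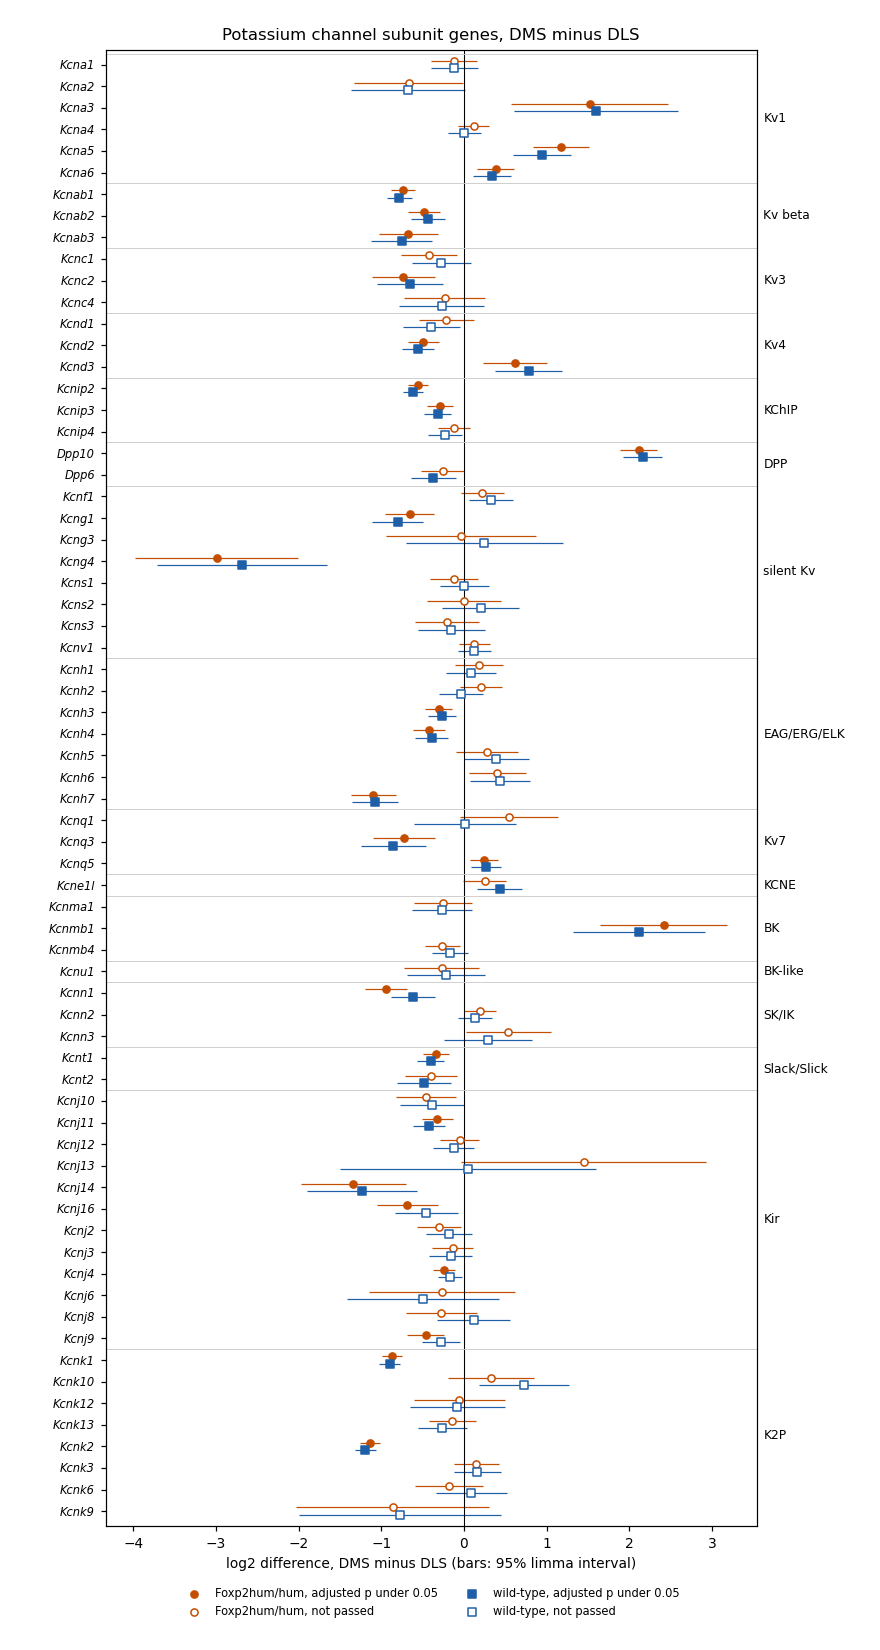
Difference between regions, as log2 DMS minus DLS (horizontal), for 68 members, ordered by channel subfamily (vertical). Orange circles are Foxp2hum/hum and blue squares are wild-type, filled where limma's adjusted p was under 0.05, with 95% intervals as bars. Of those drawn, filled symbols lie left of 0 for 22 members in Foxp2hum/hum and 21 in wild-type, all 3 Kv beta genes among them, and among filled symbols Kcnmb1, Dpp10, Kcna3 and Kcna5 stand furthest to the right.

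Markers of cell types moved with region in the same libraries. The summed normalised reads of 11 striatal projection neuron markers ran from 115290 to 147320 in Foxp2hum/hum DMS and from 116890 to 171050 in wild-type DMS, against 172530 to 211430 in Foxp2hum/hum DLS and 173430 to 227330 in wild-type DLS. Of these markers 8 of 11 fell in DMS in each genotype, Penk being the one with the smallest difference at 0.046 and -0.0057. The sum of 10 choroid plexus and ependyma genes ran from 1034 to 7657 in Foxp2hum/hum DMS and from 646 to 11320 in wild-type DMS, against 367 to 542 in Foxp2hum/hum DLS and 393 to 559.9 in wild-type DLS, and 8 of 10 rose in each genotype. All 3 neuroblast markers rose, with sums of 479.8 to 1914 in Foxp2hum/hum DMS and 579.8 to 1451 in wild-type DMS, against 92.4 to 263 in Foxp2hum/hum DLS and 137 to 265 in wild-type DLS. Of 4 tested markers of fast-spiking interneurons, Pvalb and Kcnc2 fell in each genotype, Pvalb with log2 -2.67 in Foxp2hum/hum and -2.17 in wild-type, while Kcnc1 did not pass and Pthlh stood at 0.22 in Foxp2hum/hum (adjusted p = 0.365) and rose by 0.50 in wild-type (adjusted p = 0.0244). Both tested cholinergic markers fell in each genotype, though their sums overlapped between regions in wild-type. The sums of oligodendrocyte, astrocyte, vascular, microglia and cortical or septal neuron markers overlapped between regions in both genotypes. Gene by gene, 2 of 7 astrocyte markers rose in each genotype. In wild-type 2 of 8 oligodendrocyte markers rose and 1 of 5 cortical or septal markers fell, and in Foxp2hum/hum none of either list passed. No vascular or microglia marker passed. Some markers are themselves members: Kcnc1 and Kcnc2 (fast-spiking), Kcnj13 (choroid plexus and ependyma), Kcnj10 (astrocyte) and Kcnj8 (vascular). With the mean of the projection neuron markers as a covariate, an alternative chosen after seeing the data, 23 members were higher and 9 lower in Foxp2hum/hum, and 26 and 8 in wild-type. Of all genes 19.8% were then higher and 16.5% lower in Foxp2hum/hum, and 18.9% and 16.2% in wild-type. With Ttr and Ccdc153 as covariates 3 were higher and 2 lower in each genotype, with a median log2 difference of 0.12 in Foxp2hum/hum and 0.20 in wild-type. That fit called 1.14% of all genes higher and 0.639% lower in Foxp2hum/hum, and 0.849% and 0.470% in wild-type. Neither the projection neuron sum nor Ccdc153 overlapped between the regions, while Ttr overlapped. The projection neuron covariate was the mean of the log2 values of the 11 markers and not that sum, and its own overlap was not tested. The region and Ccdc153 cannot be told apart, and the region and the projection neuron covariate were not told apart. Kcnk1 and Kcnk2 stayed lower and Dpp10 stayed higher in both genotypes under both fits, and these were the only 3 of the 27 that passed in both genotypes with Ttr and Ccdc153. With the projection neuron covariate all 7 of the higher and 6 of the 20 lower members passed in both, Kcnab1, Kcnip2, Kcnh7 and Kcng4 among the lower. With Ttr alone, also chosen after seeing the data, 3 of the 7 higher and 15 of the 20 lower members passed in both. The higher ones were Kcnmb1, Dpp10 and Kcna5, while Kcna3, Kcna6, Kcnd3 and Kcnq5 missed in at least 1 genotype.

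The K2P genes encode two-pore leak channels that set the resting potential. Kcnk2, which encodes a leak channel opened by stretch, warmth and lipids (ENSMUSG00000037624, mm9 chr1:191031816-191167711), had the smallest adjusted p of the members in both genotypes and was lower in DMS. Its normalised reads were 1662 to 2135 (median 1893) in Foxp2hum/hum DMS, 1788 to 2069 (median 1917) in wild-type DMS, against 3564 to 5987 (4055) in Foxp2hum/hum DLS and 3919.6 to 4876 (4394) in wild-type DLS. Every DMS library lay below every DLS library in both genotypes. The difference was 2.20-fold in Foxp2hum/hum (log2 -1.14 ± 0.059, adjusted p = 6e-21) and 2.29-fold in wild-type (log2 -1.19 ± 0.062, adjusted p = 7.5e-21). With the projection neuron covariate it was log2 -0.91 in Foxp2hum/hum and -0.95 in wild-type, and with Ttr and Ccdc153 as covariates -0.83 and -0.86. Kcnk1, which encodes another K2P subunit (ENSMUSG00000033998, mm9 chr8:128519002-128554583), had 1004 to 1518 (median 1325) in Foxp2hum/hum DMS, 1065 to 1482 (median 1322) in wild-type DMS, against 2103 to 2671 (2409) in Foxp2hum/hum DLS and 2258 to 2733 (2366) in wild-type DLS. Here too the regions did not overlap. It fell by log2 0.87 in Foxp2hum/hum (adjusted p = 2.31e-16) and by 0.90 in wild-type (adjusted p = 3.69e-16). The other 6 K2P members did not pass in either genotype. Among them Kcnk10, a relative of Kcnk2, stood at log2 0.33 in Foxp2hum/hum and 0.73 in wild-type (adjusted p = 0.0564), and Kcnk6 at -0.18 and 0.090.

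The ranges of the libraries did not overlap between regions for 1 higher and 5 lower members in Foxp2hum/hum, against 1.06% and 1.15% of all tested genes. In wild-type they did not overlap for 2 higher and 4 lower members, against 0.93% and 1.02%. Dpp10 was the higher one in both, joined by Kcnmb1 in wild-type, and Kcnk2, Kcnk1, Kcnab1 and Kcnip2 were lower in both, joined by Kcnh7 in Foxp2hum/hum.

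The 3 Kv beta genes, whose products are cytoplasmic subunits of Kv1 channels, all fell in DMS in both genotypes. Kcnab1, whose product speeds the inactivation of Kv1 channels (ENSMUSG00000027827, mm9 chr3:64913306-65182145), had 4495 to 6376 (median 5862) in Foxp2hum/hum DMS, 3929.9 to 6941 (median 5786) in wild-type DMS, against 8017 to 10724 (9356) in Foxp2hum/hum DLS and 7859 to 11400 (9321) in wild-type DLS. The highest DMS library remained below the lowest DLS library in each genotype. It was 1.67-fold lower in Foxp2hum/hum (log2 -0.74 ± 0.074, adjusted p = 3.23e-11) and 1.72-fold lower in wild-type (log2 -0.78 ± 0.077, adjusted p = 2.48e-11). Kcnab2, the gene of another beta subunit, had 1964 to 3295 (median 2879) in Foxp2hum/hum DMS, 2388 to 4319 (median 3091) in wild-type DMS, against 2570.3 to 5144 (4063) in Foxp2hum/hum DLS and 3177 to 5097 (4408) in wild-type DLS. Its ranges overlapped, and it fell by log2 0.48 in Foxp2hum/hum (adjusted p = 0.000147) and 0.43 in wild-type (adjusted p = 0.00119). Kcnab3, far less abundant, fell by 0.67 and 0.75, but the nested antisense gene Gm16040 amounted to 28.3% of its value and differed itself by log2 -1.07 in Foxp2hum/hum and -1.02 in wild-type. With Ttr and Ccdc153 as covariates none of the 3 passed in either genotype, and with the projection neuron covariate Kcnab1 alone passed, at log2 -0.29 and -0.30.

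Of the 6 Kv1 pore genes, whose channels those beta subunits join, 3 rose in DMS in both genotypes, and none passed as lower. Kcna5 (ENSMUSG00000045534, mm9 chr6:126482571-126485573) had 476 to 915 (median 656) in Foxp2hum/hum DMS, 366 to 808 (median 639.8) in wild-type DMS, against 184 to 518 (295) in Foxp2hum/hum DLS and 173 to 609.6 (298) in wild-type DLS. The ranges overlapped at the edge in Foxp2hum/hum and more widely in wild-type. It rose 2.25-fold in Foxp2hum/hum (log2 1.17 ± 0.17, adjusted p = 4.08e-07) and 1.93-fold in wild-type (log2 0.94 ± 0.18, adjusted p = 5.84e-05). Kcna3, a Kv1 gene also known from lymphocytes and microglia, was low, with 3.85 to 68.7 (median 19.995) in Foxp2hum/hum DMS, 13.8 to 60.1 (median 29.6) in wild-type DMS, against 0 to 30.6 (9.99) in Foxp2hum/hum DLS and 1.67 to 34.3 (9.48) in wild-type DLS. The ranges overlapped, and it rose by log2 1.52 in Foxp2hum/hum (adjusted p = 0.0169) and 1.60 in wild-type (adjusted p = 0.0172). Kcna6 rose by 0.38 and 0.34 (adjusted p = 0.00941 and 0.0352), but AC124756.1, which overlaps it on the other strand, amounted to 88.3% of its value. The wild-type call of Kcna6 was lost on leaving out any of 9 libraries. The most abundant Kv1 gene, Kcna1, had 1243 to 2868 (median 1936) in Foxp2hum/hum DMS, 1581 to 3039.9 (median 2179) in wild-type DMS, against 1180.4 to 3239 (2164) in Foxp2hum/hum DLS and 1544 to 3329 (2127) in wild-type DLS. The groups overlapped nearly in full, and its difference was log2 -0.12 in Foxp2hum/hum and -0.12 in wild-type. Kcna2, another Kv1 gene of axons, stood at -0.67 and -0.67 (adjusted p = 0.168 and 0.19).

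Among the A-type subunits, the pore gene Kcnd2 fell and its relative Kcnd3 rose in both genotypes. Kcnd2 (ENSMUSG00000060882, mm9 chr6:21165503-21679805), whose upstream window held TATTTAT, had 1852 to 2933 (median 2422) in Foxp2hum/hum DMS, 1706 to 3215 (median 2514) in wild-type DMS, against 2788 to 4474 (3293) in Foxp2hum/hum DLS and 2737 to 4764 (3418) in wild-type DLS. Foxp2hum/hum DMS overlapped Foxp2hum/hum DLS only at the edge, and the wild-type groups overlapped more widely. It fell by log2 0.49 ± 0.093 (SE) in Foxp2hum/hum (adjusted p = 6.57e-05) and 0.56 ± 0.098 in wild-type (adjusted p = 1.98e-05). Kcnd3 (ENSMUSG00000040896, mm9 chr3:105255248-105476920) had 166 to 492 (median 321) in Foxp2hum/hum DMS, 238 to 611 (median 383) in wild-type DMS, against 87.95 to 358 (218) in Foxp2hum/hum DLS and 90.4 to 371 (241) in wild-type DLS. Its ranges overlapped in both genotypes. It rose by log2 0.62 ± 0.19 in Foxp2hum/hum (adjusted p = 0.0181) and 0.78 ± 0.20 in wild-type (adjusted p = 0.00372). With Ttr alone as a covariate Kcnd3 missed in at least 1 genotype. With the projection neuron covariate Kcnd2 stood at log2 0.13 and 0.11, with the sign turned and not passing. Kcnd1, the third Kv4 gene, did not pass.

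KChIP proteins bind calcium and Kv4 channels and bring them to the membrane. Kcnip2 (ENSMUSG00000025221, mm9 chr19:45866329-45890551), the KChIP gene with the most reads per kilobase once Kcnip1 is set aside, had 3293 to 4074 (median 3731) in Foxp2hum/hum DMS, 3359 to 4407 (median 3792) in wild-type DMS, against 4541 to 6178 (5442) in Foxp2hum/hum DLS and 4856 to 6664 (5943) in wild-type DLS. In each genotype all DMS libraries were below all DLS libraries. It fell by log2 0.56 ± 0.059 in Foxp2hum/hum (adjusted p = 1.38e-10) and 0.62 ± 0.061 in wild-type (adjusted p = 2.48e-11). It passed with the projection neuron covariate, at -0.33 and -0.38, and missed with Ttr and Ccdc153, at -0.50 and -0.56 (adjusted p = 0.0763 and 0.0762). Kcnip3, which also encodes the transcriptional repressor DREAM, fell by log2 0.29 in Foxp2hum/hum, a call lost with quantile normalisation (adjusted p = 0.0502), and 0.32 in wild-type. Kcnip4 did not pass in either genotype.

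Dpp10 went the other way. Its product is a membrane protein that has lost peptidase activity and speeds the gating of Kv4 channels. Dpp10 (ENSMUSG00000036815, mm9 chr1:125228716-125942136) had 813 to 1282 (median 992) in Foxp2hum/hum DMS, 617 to 1338 (median 1026) in wild-type DMS, against 175 to 299 (238) in Foxp2hum/hum DLS and 167 to 341 (214) in wild-type DLS. The lowest DMS library stood well above the highest DLS library in both genotypes. It was 4.33-fold higher in Foxp2hum/hum (log2 2.11 ± 0.11, adjusted p = 9.78e-21) and 4.48-fold higher in wild-type (log2 2.16 ± 0.12, adjusted p = 2.89e-20). Its log2 difference stayed between 2.02 and 2.31 with Ttr, Ttr and Ccdc153, or the projection neuron markers as covariates. Dpp6, the related gene with the same role, had 1764 to 3342 (median 2650.5) in Foxp2hum/hum DMS, 1652 to 3971 (median 2735) in wild-type DMS, against 1933 to 4101 (3097) in Foxp2hum/hum DLS and 2280.5 to 4846 (3558) in wild-type DLS. These groups overlapped widely. Dpp6 differed by log2 -0.26 in Foxp2hum/hum (adjusted p = 0.174) and fell by 0.37 in wild-type (adjusted p = 0.0469), a call lost on leaving out any of 24 libraries, the highest adjusted p being 0.116 without library 34. With edgeR the wild-type value missed as well (adjusted p = 0.0506).

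Ratios within each library, chosen after the values were seen, set these genes side by side. The ratio of Dpp10 to Dpp6 reads ran from 0.309 to 0.605 (median 0.380) in Foxp2hum/hum DMS and from 0.218 to 0.576 (median 0.355) in wild-type DMS, against 0.0519 to 0.128 (median 0.0724) in Foxp2hum/hum DLS and 0.0393 to 0.0937 (median 0.0648) in wild-type DLS. The ranges of the regions did not overlap. The ratio of Kcnd3 to Kcnd2 ran from 0.0898 to 0.184 (median 0.131) in Foxp2hum/hum DMS and from 0.103 to 0.293 (median 0.145) in wild-type DMS, against 0.0302 to 0.0955 (median 0.0663) in Foxp2hum/hum DLS and 0.0330 to 0.0778 (median 0.0644) in wild-type DLS. Here the regions stayed apart in wild-type and met in Foxp2hum/hum, where the lowest DMS library lay under the highest DLS library.

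**Figure D3:**
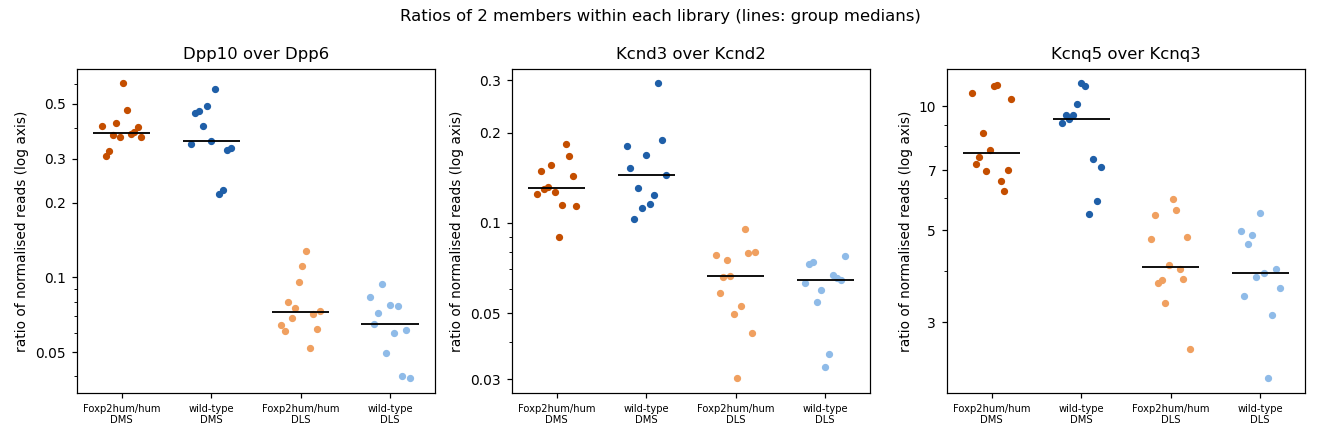
Ratio of normalised reads of 2 members within each library (vertical, log axis) by group, for Dpp10 over Dpp6, Kcnd3 over Kcnd2 and Kcnq5 over Kcnq3, with lines at group medians. The group medians are higher in DMS in all 3 panels, at 0.380 and 0.355 in DMS for Dpp10 over Dpp6, against 0.0724 and 0.0648 in DLS. The regions overlap at the edge for Kcnd3 over Kcnd2 in Foxp2hum/hum and for Kcnq5 over Kcnq3 in wild-type.

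Kv7 channels carry the M-current, which damps repeated firing. Kcnq3 (ENSMUSG00000056258, mm9 chr15:65826733-66117786) fell and Kcnq5 (ENSMUSG00000028033, mm9 chr1:21388484-21952023) rose in DMS in both genotypes. Kcnq3 had 148 to 409 (median 243) in Foxp2hum/hum DMS, 149.9 to 555 (median 214) in wild-type DMS, against 258 to 755 (367) in Foxp2hum/hum DLS and 286 to 819.7 (406) in wild-type DLS. Its ranges overlapped. The log2 difference was -0.73 ± 0.19 in Foxp2hum/hum (adjusted p = 0.00361) and -0.85 ± 0.20 in wild-type (adjusted p = 0.00108). Kcnq5 had 1626 to 2547 (median 1879.8) in Foxp2hum/hum DMS, 1616 to 3039.9 (median 1998) in wild-type DMS, against 1429 to 2011 (1578) in Foxp2hum/hum DLS and 1382 to 2082 (1658) in wild-type DLS. Its rise was small, at log2 0.24 and 0.26, with adjusted p = 0.0383 and 0.0315. The Kcnq5 call was lost on leaving out any of 12 libraries in Foxp2hum/hum and any of 6 in wild-type, with a highest adjusted p of 0.0857 without library 84 and 0.0797 without library 72. Gm7658, nested in Kcnq5, amounted to 17.6% of its value. The ratio of Kcnq5 to Kcnq3 ran from 6.23 to 11.3 (median 7.68) in Foxp2hum/hum DMS. In wild-type DMS it ran from 5.48 to 11.4 (median 9.32). In DLS it ran from 2.58 to 5.95 (median 4.07) in Foxp2hum/hum and from 2.19 to 5.50 (median 3.94) in wild-type. The regions stayed apart in Foxp2hum/hum and met in wild-type, where the lowest DMS library lay just under the highest DLS library.

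Of the 7 EAG, ERG and ELK members, 3 fell in both genotypes and none rose. Kcnh7, a gene of the ERG branch (ENSMUSG00000059742, mm9 chr2:62531471-63022344), had 144 to 349 (median 246) in Foxp2hum/hum DMS, 186 to 477 (median 243) in wild-type DMS, against 369.5 to 744 (509.6) in Foxp2hum/hum DLS and 425 to 769 (511) in wild-type DLS. Foxp2hum/hum DMS did not overlap Foxp2hum/hum DLS, and the wild-type regions overlapped at the edge. It was 2.14-fold lower in Foxp2hum/hum (log2 -1.09 ± 0.13, adjusted p = 6.75e-09) and 2.11-fold lower in wild-type (log2 -1.08 ± 0.14, adjusted p = 3.07e-08). Gca, which overlaps it on the other strand, amounted to 36.9% of its value and differed by log2 -0.56 and -0.40 itself. The ELK genes Kcnh3 and Kcnh4, expressed mainly in forebrain, fell by 0.31 and 0.42 in Foxp2hum/hum and by 0.26 and 0.39 in wild-type. The wild-type call of Kcnh3 was lost without library 34, with adjusted p = 0.0662, without library 65 and with quantile normalisation (adjusted p = 0.101). Kcnh2, the ERG gene best known from the heart, stood at 0.21 in Foxp2hum/hum and -0.035 in wild-type.

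Kv3 channels repolarise fast-spiking neurons. Kcnc2 (mm9 chr10:111708179-111903360) had 27.7 to 104 (median 57.2) in Foxp2hum/hum DMS, 40.8 to 87.8 (median 55.6) in wild-type DMS, against 59.02 to 151 (83.1) in Foxp2hum/hum DLS and 41.9 to 154 (90.8) in wild-type DLS. Its ranges overlapped in both genotypes. It fell by 0.74 in Foxp2hum/hum and 0.65 in wild-type (adjusted p = 0.00322 and 0.015), and Kcnc1 stood at -0.42 and -0.28 without passing (adjusted p = 0.0781 and 0.314). Kcnc1 and Kcnc2 are themselves on the marker list of fast-spiking interneurons, beside Pvalb, which fell, and Pthlh, which rose in wild-type (values above). The part of interneuron number in these differences was not tested.

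The silent Kv subunits form channels only with Kv2 partners. Kcng4 (ENSMUSG00000045246, mm9 chr8:122147754-122159580) had the largest difference of all members, at low counts, with 0 to 10.5 (median 2.56) in Foxp2hum/hum DMS, 0 to 13.2 (median 5.51) in wild-type DMS, against 0 to 70.6 (31.3) in Foxp2hum/hum DLS and 11.7 to 50.8 (35.7) in wild-type DLS. It was at 0 in 2 of 12 Foxp2hum/hum DMS, 1 of 11 wild-type DMS and 1 of 12 Foxp2hum/hum DLS libraries, where 0 reads allow up to 3. Apart from that 1 DLS library, Foxp2hum/hum DLS lay above Foxp2hum/hum DMS, and the wild-type ranges met only at the edge. Its log2 difference was -2.99 ± 0.49 in Foxp2hum/hum (adjusted p = 5.1e-06) and -2.69 ± 0.51 in wild-type (adjusted p = 7.61e-05). Kcng1, much more abundant, had 233 to 524 (median 435) in Foxp2hum/hum DMS, 265 to 627 (median 489) in wild-type DMS, against 365 to 876 (706) in Foxp2hum/hum DLS and 512 to 1173 (844) in wild-type DLS. The difference was log2 -0.66 in Foxp2hum/hum (adjusted p = 0.000743) and -0.80 in wild-type (adjusted p = 8.75e-05). Kcns2, the most abundant silent subunit, stood at 0.0011 and 0.20, without passing.

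Of the genes of channels gated by calcium or sodium, Kcnmb1 rose and Kcnn1 and Kcnt1 fell in both genotypes. Kcnmb1, which encodes a BK accessory subunit best known from smooth muscle (ENSMUSG00000020155, mm9 chr11:33863013-33873641), had 20.3 to 127 (median 65.6) in Foxp2hum/hum DMS, 38.5 to 132 (median 63.1) in wild-type DMS, against 0 to 24.2 (14.9) in Foxp2hum/hum DLS and 2.73 to 37.98 (16.02) in wild-type DLS. The wild-type regions did not overlap, while the lowest Foxp2hum/hum DMS library lay under the highest Foxp2hum/hum DLS library. It rose 5.34-fold in Foxp2hum/hum (log2 2.42 ± 0.38, adjusted p = 2.46e-06) and 4.34-fold in wild-type (log2 2.12 ± 0.40, adjusted p = 6.32e-05). Kcnmb1 lies within Kcnip1 on the other strand, a row with far more reads, and the sources used here do not say whether reads were counted by strand. In the 2 libraries with the highest Kcnip1, Kcnmb1 had 63.1 reads (wild-type DMS, library 72) and 37.98 reads (wild-type DLS, library 70), the first being its group's median and the second its group's highest. The BK pore gene Kcnma1 stood at log2 -0.25 and -0.27, and Kcnu1, a related pore gene known from sperm, at -0.27 and -0.22. Of the SK genes, whose calcium-gated channels follow the action potential with a hyperpolarisation, Kcnn1 (ENSMUSG00000002908, mm9 chr8:73365948-73380907) had 72.8 to 148 (median 97.2) in Foxp2hum/hum DMS, 84.1 to 182 (median 120.4) in wild-type DMS, against 135 to 269.9 (188) in Foxp2hum/hum DLS and 145 to 241 (203) in wild-type DLS. It fell by log2 0.94 in Foxp2hum/hum (adjusted p = 8.93e-08) and 0.62 in wild-type (adjusted p = 0.000448), while Kcnn2 stood at 0.19 and 0.13. Of the sodium-activated genes, Kcnt1 fell by 0.34 and 0.40 in the 2 genotypes. Kcnt2 differed by -0.40 in Foxp2hum/hum (adjusted p = 0.0661) and fell by 0.48 in wild-type (adjusted p = 0.0328), a call lost on leaving out any of 8 libraries.

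The inward rectifiers held 12 members, of which 5 fell in Foxp2hum/hum and 2 in wild-type, and none rose. Kcnj11, the pore of the ATP-sensitive channel (ENSMUSG00000070561, mm9 chr7:53352533-53355607), had 294 to 481 (median 390.0) in Foxp2hum/hum DMS, 294 to 529 (median 438) in wild-type DMS, against 377 to 595 (511) in Foxp2hum/hum DLS and 479 to 668 (545) in wild-type DLS. The difference was log2 -0.32 in Foxp2hum/hum (adjusted p = 0.00916) and -0.42 in wild-type (adjusted p = 0.00104). Kcnj14, a low gene of the strong rectifier group, had 4.81 to 33.1 (median 17.8) in Foxp2hum/hum DMS, 1.85 to 25.4 (median 13.2) in wild-type DMS, against 19.9 to 79.7 (38.97) in Foxp2hum/hum DLS and 11.03 to 59.7 (29.5) in wild-type DLS. Its ranges overlapped, and it fell by 1.34 and 1.23 (adjusted p = 0.00127 and 0.0052). The most abundant rectifier, Kcnj4, had 2050.5 to 3354 (median 2947) in Foxp2hum/hum DMS, 2586 to 3248 (median 2874) in wild-type DMS, against 2735 to 3991 (3469) in Foxp2hum/hum DLS and 2677 to 3595 (3259) in wild-type DLS. Its difference was slight, at -0.24 in Foxp2hum/hum, where it passed (adjusted p = 0.00745, or 0.0707 with quantile normalisation), and -0.17 in wild-type, where it did not (adjusted p = 0.0913). Kcnj9, a G protein-gated rectifier gene, stood at -0.46 (adjusted p = 0.00142) in Foxp2hum/hum and -0.27 in wild-type (adjusted p = 0.0973). Kcnj16, whose product pairs with the glial rectifier encoded by Kcnj10, stood at -0.68 (adjusted p = 0.00482) and -0.45 (adjusted p = 0.099). Kcnj8, the vascular ATP-sensitive pore, stood at -0.27 and 0.12.

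Kcnj13, the rectifier of the choroid plexus, was detected unevenly. It reached 119 normalised reads in 1 wild-type DMS library and 69.8, 47.3 and 34.2 in 3 Foxp2hum/hum DMS libraries, with group medians of 6.32, 3.17, 1.58 and 4.97 in Foxp2hum/hum DMS, wild-type DMS, Foxp2hum/hum DLS and wild-type DLS. The same 4 libraries, in the same order, had the most reads of Ttr, the transthyretin gene and a choroid plexus marker, at 9582, 6159.6, 2873 and 2481. Below these 4 the order differed. In Foxp2hum/hum DLS library 42 Kcnj13 had 16.9 reads and Ttr 3.97, and in Foxp2hum/hum DMS library 4 they had 0 and 269. Kcnj13 lies within Gigyf2 on the other strand, a row with a mean of 663 normalised reads against 10.5 for Kcnj13. The regional difference of Kcnj13 was log2 1.45 in Foxp2hum/hum (limma adjusted p = 0.186) and 0.045 in wild-type.

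Kcne1l, the 1 KCNE accessory gene with enough reads, stood at log2 0.25 in Foxp2hum/hum (adjusted p = 0.195) and rose by 0.43 in wild-type (adjusted p = 0.0188). The wild-type call was lost when only the compared groups entered the fit, at adjusted p = 0.0528. Of the 73 members, 39 passed in neither genotype. Their log2 differences ran from -0.86 to 1.45 in Foxp2hum/hum and from -0.78 to 0.73 in wild-type, and 36 of the 39 lay within 1.5-fold in each genotype. The 95% interval itself lay within 1.5-fold for 18 of them in Foxp2hum/hum and 17 in wild-type, and for the others it reached beyond that size in at least 1 direction.

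**Figure D4:**
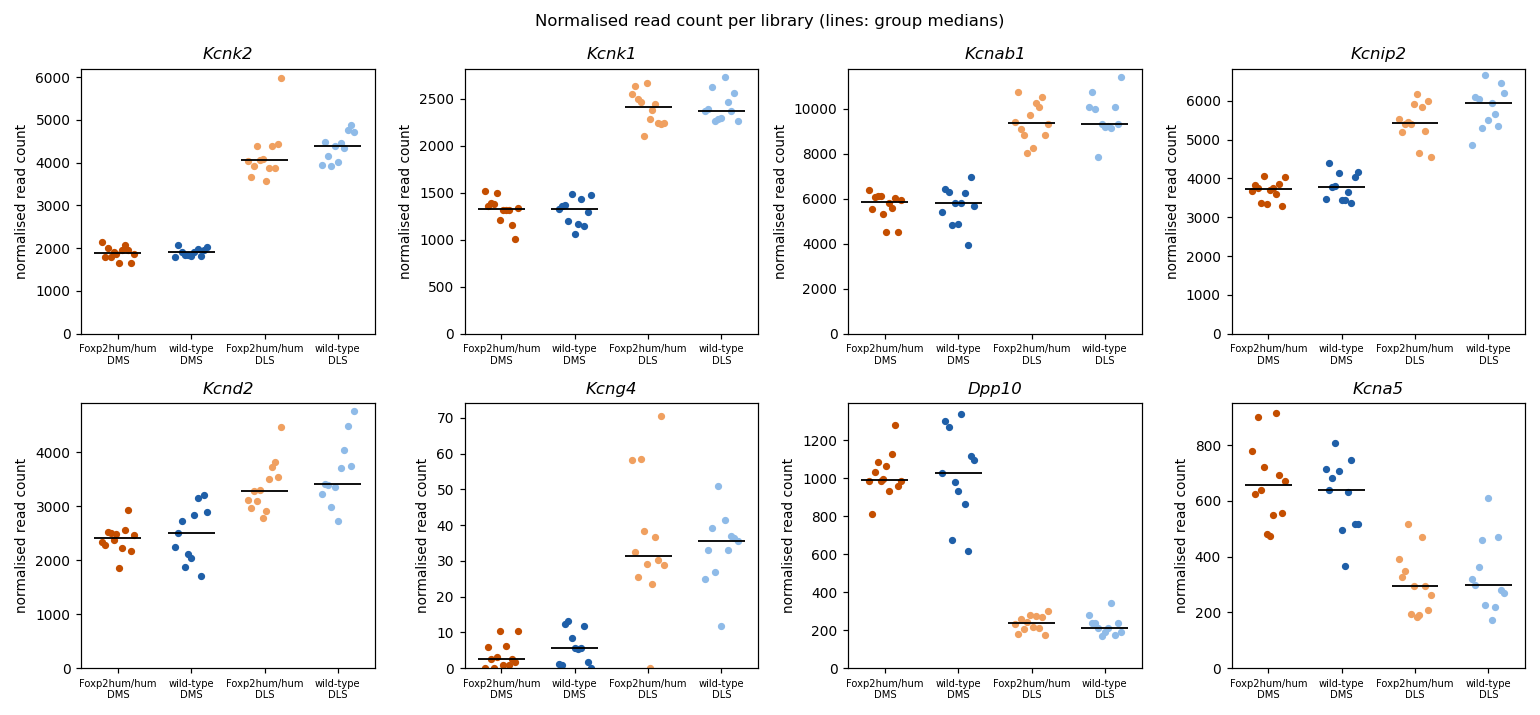
Normalised read count (vertical, from 0) of 8 members in each library, by group (horizontal), with lines at group medians. For Kcnk2, Kcnk1, Kcnab1 and Kcnip2 all DMS libraries lie under all DLS libraries, and for Dpp10 all lie above, while the 2 genotypes of a region overlap in all 8 panels.

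Genes of 31 partners that bind, anchor or modulate potassium channels but carry other symbols were compared in the same way, and 29 passed the same limit on low values. In each genotype 12 of the 29 fell in DMS and none rose, with a median log2 difference of -0.22 in Foxp2hum/hum and -0.24 in wild-type, against 0.018 and 0.0067 over all tested genes, of which 8.82% and 8.72% fell. Rgs7bp, which anchors the complex that shuts off G protein-gated rectifiers, differed most, at log2 -1.28 in Foxp2hum/hum and -1.35 in wild-type (adjusted p = 6.8e-08 and 6.93e-08). Its partners Rgs7 and Gnb5 fell by 0.25 and 0.18 in Foxp2hum/hum and by 0.38 and 0.21 in wild-type. Genes of calmodulin, which gates SK and Kv7 channels, fell too: Calm2 by 0.59 and 0.63 and Calm3 by 0.53 and 0.45 in Foxp2hum/hum and wild-type. Lgi1, a secreted protein gene linked to Kv1 channels, fell by 0.51 and 0.50, and its receptors Adam22 by 0.45 and 0.48 and Adam23 by 0.59 and 0.66. The sulfonylurea receptor gene Abcc8, partner of Kcnj11, stood at -0.39 and -0.26 without passing, and the Kv2 partner Amigo1 at -0.088 and -0.057. The projection neuron marker sums given above move with these genes as well, and their part in them was not tested.

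The series also asks whether the humanised allele changes striatal gene expression. No potassium channel member passed in DMS, in DLS or for the interaction, whether limma, edgeR or DESeq2 was used. The main limma fit passed 0% of all genes in each of these comparisons, and edgeR passed 0 genes. DESeq2 passed 1 gene as higher and 2 as lower in DLS, and 0 in DMS or for the interaction. With array weights limma passed 1 gene as lower in DLS. At an unadjusted limma p under 0.05 there was 1 member in DMS and 4 in DLS, all lower in Foxp2hum/hum, where 1.59% of all genes in DMS and 2.33% in DLS were lower at that threshold (3.58% and 4.31% in either direction). For the interaction there were 0 members, against 1.64% of all genes. By edgeR these counts were 3, 4 and 0, against 757, 773 and 276 of all 19561 genes. By DESeq2 they were 3, 5 and 0, against 713, 843 and 324. At that threshold 0 members were lower and 2 higher in DLS with the projection neuron covariate, and 0 and 1 with Ttr and Ccdc153. Of all genes 599 and 521 passed there in either direction. Leaving out 1 library moved the limma counts by over 1.5 times in some fits. In DMS there were 5 lower members without library 34, 3 without 84 or 50, 2 without 27, 49, 90, 88 or 93, and 1 lower and 1 higher without 64 or 18. In DLS there was 1 lower member without 22, 61 or 89, 2 without 60, 2 lower and 1 higher without 44, 70 or 77, and 7 lower and 1 higher without 51. In the other DLS fits there were 3 to 6 lower and at most 1 higher. For the interaction there was 1 member without 67, 24 or 61. The median log2 difference of the members, Foxp2hum/hum minus wild-type, was -0.078 in DMS and -0.083 in DLS, against 0.00036 and -0.0087 over all genes. In each region 52 of 73 members (71.2%) were below 0, against 49.9% of all genes in DMS and 51.95% in DLS. Without Kcnip1 it was 51 of 72 in each region. Of the projection neuron markers 10 of 11 were below 0 in DMS and 11 of 11 in DLS. Of the tested partners 20 and 22 of 29 were below 0, and of the choroid plexus and ependyma genes 2 and 3 of 10. Without libraries 70 and 72, both wild-type, the medians of the members were -0.032 and -0.069. They were -0.021 and 0.010 with the projection neuron covariate, and -0.042 and 0.012 with Ttr and Ccdc153. The part of cell types in these values was not tested.

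The member with the smallest p in DMS was Kcnn1, with a median of 97.2 reads in Foxp2hum/hum DMS and 120.4 in wild-type DMS, whose ranges overlapped (given above). Its log2 difference was -0.33 (95% interval -0.59 to -0.067, limma adjusted p = 0.955), against -0.0046 in DLS, and the interaction had an adjusted p = 0.9999. Kcnab2 was also among the lower ones in DMS, at -0.17. With higher values the smallest p belonged to Kcnj14 at 0.52, Kcnj13 at 1.09 and Kcnt2 at 0.21. All had the same adjusted p as Kcnn1. Leaving out 1 library lowered Kcnj14 to 0.32 (without 72) and Kcnt2 to 0.11 (without 76).

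In DLS the ERG gene Kcnh2 had the smallest p. Its reads ran from 148 to 332 (median 262) in Foxp2hum/hum DLS and from 162 to 411 (median 313) in wild-type DLS. The log2 difference was -0.32 (95% interval -0.58 to -0.064, limma adjusted p = 0.843), and in DMS it was -0.078. Kcng1 stood at -0.32, Kcnt1 at -0.17 and Kcnj11 at -0.20. On the higher side Kcnj14 stood at 0.63, Kcnk10 at 0.48 and Kcnk6 at 0.31, and all had the same adjusted p as Kcnh2. Leaving out library 51 lowered Kcnk6 to 0.12.

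**Figure D5:**
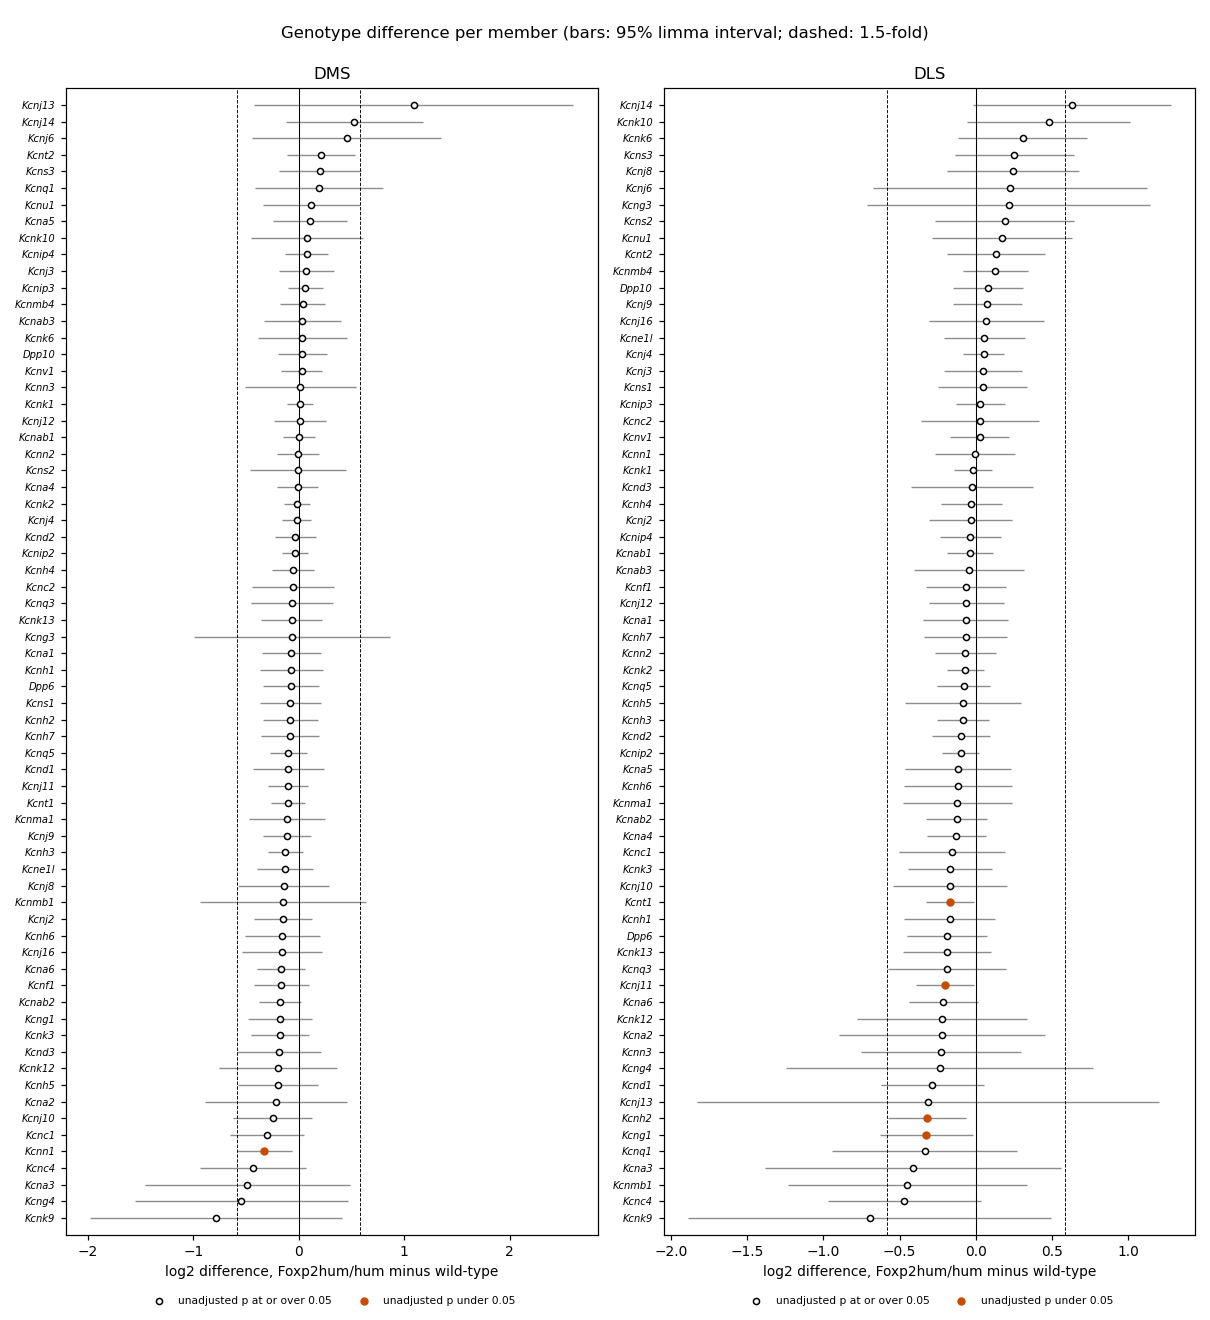
Difference between genotypes, as log2 Foxp2hum/hum minus wild-type (horizontal), for 68 members, sorted by value (vertical), in DMS (left) and DLS (right), with 95% limma intervals as bars and dashed lines at 1.5-fold. No member passed the adjustment, and the orange points, with unadjusted p under 0.05, are 1 in DMS and 4 in DLS, all left of 0.

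For Kcnk2, Kcnk1, Kcnab1, Kcnip2 and Dpp10, whose regional ranges did not overlap in either genotype, the interval of the genotype difference lay within 1.5-fold in both regions. In DMS the 95% interval of the log2 difference between genotypes was -0.14 to 0.11 for Kcnk2, -0.11 to 0.14 for Kcnk1, -0.15 to 0.16 for Kcnab1, -0.16 to 0.084 for Kcnip2 and -0.20 to 0.26 for Dpp10. In DLS it was -0.19 to 0.053 for Kcnk2, -0.14 to 0.11 for Kcnk1, -0.19 to 0.12 for Kcnab1, -0.22 to 0.022 for Kcnip2 and -0.15 to 0.31 for Dpp10. Over all members the interval lay within 1.5-fold for 52 of 73 in DMS and 48 of 73 in DLS, which is 71.2% and 65.8%, against 71.7% and 70.2% of all tested genes.

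Members called in 1 genotype only were not shown to differ between the genotypes. Kcnj4, Kcnj9 and Kcnj16 were called in Foxp2hum/hum only, and Dpp6, Kcne1l and Kcnt2 in wild-type only. The interaction, which tests that difference, had an adjusted p = 0.9999 for each of them by limma. The members with the smallest interaction p after Kcnn1 were Kcnh2 at log2 0.24, Kcnj13 at 1.402, Kcnj8 at -0.39 and Kcnq1, a Kv7 gene best known from heart and epithelia, at 0.53.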

How the data were processed

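Messenger RNA from laser-captured dorsomedial and dorsolateral striatum of Foxp2hum/hum and wild-type mice was sequenced as 46 libraries. The authors deposited 1 table of signal values, which are read counts per gene divided by a DESeq size factor per library. Per the submitters' processing notes, TopHat 1.4.1, bedtools and DESeq were used with the mm9 build, and the role and settings of each are not given in the sources used here. Whole reads were recovered from the deposited signal: within a tolerance of 0.01 reads, 100% of values in each library were whole multiples of 1 step. They sum to between 16794127 and 41009070 reads per library, and counting error weighs most on members with few reads. Libraries were put into groups by the header block of their column, which names genotype and region.

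Members are rows with a symbol starting with Kcn, except Kcnq1ot1, plus Dpp6 and Dpp10, with a mean of at least 10. All 19561 rows with a mean of at least 10 were tested. limma 3.58.1 in R 4.3.3 was fitted to log2(value + 1) with 4 group means over all libraries and a trended prior, 2-sided, with Benjamini-Hochberg adjustment over all 19561 rows and a threshold of 0.05. Fold changes on this scale understate those of low genes. Alternatives were edgeR 4.0.16 and DESeq2 1.42.0 on the whole reads, TMM factors, quantile normalisation, pseudocounts of 0.5 and 8, a minimum mean of 50 or none, array weights, only the compared groups, marker covariates, and leaving out libraries. On the recovered reads edgeR called 1804 genes higher and 1732 lower in DMS in Foxp2hum/hum (7 and 26 members), 1640 and 1653 in wild-type (9 and 21 members), and 0 between genotypes or for the interaction. The Ttr covariate, the projection neuron covariate and that of the mmu-mir-2134, mmu-mir-2135, mmu-mir-2143 and mmu-mir-2144 rows were chosen after seeing the data.

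Named are the 4 proposed markers (Kcnk2, Kcnab1, Kcnip2, Dpp10), every member called in both genotypes, the 5 of largest difference among those called in 1 genotype, the 3 of smallest p per direction in each genotype contrast and the interaction, and the most abundant of each subfamily. Some genes that the rule names are not reported here and not drawn, and Kcnip1 is not drawn with the others. Other names were chosen after their values were seen. The members and lists were chosen with earlier results of these data known. Gene positions are from GENCODE M1 on mm9, matched for 25023 of 25259 identifiers. Figures were drawn with matplotlib 3.10.9 in Python 3.11.15.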

Additional observations from a re-analysis of the deposited data

How the results depend on the processing

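No paired analysis was possible because the labels give neither replicate numbers nor animals for the libraries. Leaving out each of the 46 libraries in turn left 30 to 33 members called between regions in Foxp2hum/hum (6 to 8 higher and 24 to 27 lower) and 27 to 31 in wild-type (6 to 9 higher and 19 to 24 lower). It left 0 to 0 between genotypes in DMS, in DLS and in the interaction. Of 79 named regional and genotype results, DESeq2 kept the direction and side of the threshold of 78, edgeR of 77, TMM factors and both pseudocounts of 79, no filter of 78, a minimum mean of 50 of 66 of 66, array weights and the oligodendrocyte covariate of 75, quantile normalisation of 73, the compared groups alone of 70 of 73, and the fit without libraries 70 and 72 of 78. The covariate of the mmu-mir rows kept 79. With oligodendrocyte markers as a covariate the wild-type calls of Dpp6, Kcna6, Kcnh3 and Kcnt2 were lost, with the compared groups alone those of Dpp6, Kcne1l and Kcnq5, without libraries 70 and 72 that of Kcnq5, and with array weights that of Kcnt2.

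Marker covariates moved the counts and kept fewer of the 79 named results. Ttr and Ccdc153 kept 25, with 35 calls lost at the same sign and 19 signs changed. The projection neuron markers kept 44, with 14 calls lost at the same sign and 21 signs changed. Ttr alone kept 63, with 16 calls lost and 0 signs changed. With Ttr and Ccdc153, 5 members were called in each genotype, 3 higher and 2 lower, and of all 19561 genes 223 were higher and 125 lower in Foxp2hum/hum, and 166 and 92 in wild-type. With Ttr alone, 3 were higher and 18 lower in Foxp2hum/hum and 4 and 21 in wild-type, against 1150 and 1129 and 1335 and 1423 of all genes. With the projection neuron markers, 23 were higher and 9 lower in Foxp2hum/hum, and 26 and 8 in wild-type. Of all genes, 3870 were then higher and 3229 lower in Foxp2hum/hum, and 3705 and 3176 in wild-type. The log2 difference of some named genes changed sign, and the cause was not tested. With Ttr and Ccdc153 it stood in Foxp2hum/hum at Kcnd2 0.068, Kcne1l -0.32, Kcng1 0.040, Kcnh3 0.061, Kcnj11 0.016, Kcnj9 0.038, Kcnq3 0.077, Kcnt1 0.015 and Kcnt2 0.42. With Ttr and Ccdc153 it stood in wild-type at Dpp6 0.62, Kcnab2 0.10, Kcnd2 0.11, Kcne1l -0.17, Kcnh3 0.16, Kcnj16 0.19, Kcnj9 0.29, Kcnq3 0.071, Kcnt1 0.00013 and Kcnt2 0.50. With the projection neuron markers it stood in Foxp2hum/hum at Kcnab2 0.10, Kcnd2 0.13, Kcne1l -0.10, Kcng1 0.43, Kcnh3 0.26, Kcnj11 0.25, Kcnj16 0.19, Kcnq3 0.24, Kcnt1 0.072 and Kcnt2 0.17. With the projection neuron markers it stood in wild-type at Dpp6 0.71, Kcnab2 0.19, Kcnd2 0.11, Kcng1 0.36, Kcnh3 0.34, Kcnj11 0.19, Kcnj16 0.48, Kcnj9 0.19, Kcnq3 0.18, Kcnt1 0.034 and Kcnt2 0.13. Of these, Dpp6 and Kcnh3 passed in wild-type with the projection neuron markers. Counting error limits members with few reads, such as Kcng4, Kcna3, Kcnj14 and Kcnj13, and for the genotype comparisons the spread between libraries kept the interval within 1.5-fold for only 52 of 73 members in DMS and 48 in DLS. Reads shared by overlapping genes were not resolved, and the sources used here do not give the strand used in counting.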
